A study of Mus musculus with 8 samples.

Results

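The S phase and DNA replication genes described here are 51 genes that act at the G1/S boundary and at the replication fork, chosen by symbol from the deposited table of counts, which holds 23100 genes. They were followed in 8 libraries of Min6 cells, an insulin-producing tumour line of the mouse used as a beta cell model. In 4 libraries the cells had been transfected with pRK5-Zac1, a plasmid that expresses the zinc finger transcription factor Zac1, and in 4 with pRK5-NLSeGFP, a control plasmid for a nuclear green fluorescent protein. Plasmids of the pRK5 type drive their insert from a cytomegalovirus promoter. RNA was taken 16 h after lipid-mediated transfection, and the libraries of both groups carry the replicate numbers 1, 2, 3 and 5. They are biological replicates according to the series' own design text, but the labels do not say what the shared numbers stand for. All 8 libraries come from 1 cell line and had the same transfection procedure, and neither an untransfected culture nor another time was analysed here. The share of cells that took up a plasmid is not given in the sources used here, so each value is an average over all cells of a culture.

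Zac1 is encoded by the imprinted gene Plagl1 and is named for its ability to induce apoptosis and cell cycle arrest when it is overexpressed. DNA replication starts with the licensing of origins in G1, when the origin recognition complex, Cdc6 and Cdt1 load the Mcm2 to Mcm7 ring onto DNA. At S phase entry Cdc45 and the GINS complex join that ring to form the active helicase, and primase, the replicative polymerases, the PCNA clamp and the nucleases and ligase that finish the lagging strand follow. Many of these genes are transcribed around the G1/S boundary under the control of E2F transcription factors, which cyclin E and Cdk2 help to release from the retinoblastoma proteins.

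The libraries held 30.5 to 42.5 M counts (M stands for mega), and the 51 genes took 0.623% to 0.630% of them in the Zac1 libraries and 0.594% to 0.625% in the control libraries. A single member had between 229 counts (Gins1) and 19393 counts (Rrm1) in a library. The transfected gene, Plagl1, reached 4631 ± 778 CPM in the Zac1 libraries against 77.8 ± 7.38 CPM in the control libraries (SD, n = 4 each; CPM is counts per mega counts of the library, with totals scaled by the TMM method), and its reads mix plasmid and endogenous transcripts. All 15 beta cell markers examined were above 1 CPM, with summed levels of 66830 to 74880 CPM in the Zac1 libraries against 64360 to 81430 CPM in the control libraries. Of the markers of fibroblasts, immune cells and endothelium, 0 of 8, 1 of 8 (Cd68) and 1 of 6 (Pecam1) had a mean above 1 CPM, and Lum and Cdh5 had no count in any library. Of 9 markers of other islet cells and of acinar cells, Gcg and Cela1 were above 1 CPM, and the 9 summed to 1334 to 2127 CPM in the Zac1 libraries against 1240 to 1679 CPM in the control libraries. No library was a copy of another, since each pair of same-group libraries had a chi-square of 8.42 to 28.2 per degree of freedom.

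The first comparison asks which genes respond to Zac1. None of the 51 replication genes passed the test (edgeR quasi-likelihood F test, Benjamini-Hochberg adjusted p under 0.05 over 14331 tested genes), where 2.18% of all tested genes did (2.15% higher and 0.0349% lower with Zac1). All 51 had enough counts to be tested. DESeq2 and limma-voom also called 0 of 51. In this fit, which leaves out the replicate number, Pold3 alone had an unadjusted edgeR p under 0.05, and the lowest adjusted p (0.523). Over all tested genes 7.58% were under 0.05 unadjusted (5.65% higher with Zac1). With the replicate number in the model, Pole, Pold3, Slbp, Prim1, Ccne1, Cdk2, Mcm6 and Mcm10 were under 0.05 unadjusted, all higher with Zac1. The matching share of all tested genes is not given here. None of them passed adjustment (lowest edgeR adjusted p = 0.114, Pole), where 4.38% of all tested genes did. A share of 0 among 51 genes is near that of all tested genes, so the counts do not set the list apart.

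The estimated changes were small on the log2 scale. They ran between -0.07 (Pold1) and 0.13 (Prim1), 33 were above 0 and 18 below, and their median was 0.02, beside a median of -0.01 over all tested genes. The median size of the change, regardless of sign, was 0.04 over the members and 0.06 over all tested genes. For 47 of the 51 genes the 95% interval of the log2 change lay within 0.25 of 0 on either side. Over all 14331 tested genes, which include genes with far lower counts, it did so for 7578. Among the members, the intervals that reached beyond belonged to Pold1, Pold2, Prim1 and Ccne1, and the outermost bounds were -0.36 (Pold1) and 0.30 (Prim1). These intervals come from the fit without the replicate number, so differences between numbers widen them. With the number in the model the SE of Pold1 was 0.057, against 0.134 without it. That of Pold2 was 0.057, against 0.104. Signs depended in part on the processing and on the libraries kept. In at least 1 of 18 alternative fits, which include fits without a library or a number, 28 of the 51 changed sign. The other 23 kept 1 sign in every fit, 20 of them above 0 and 3 below. In bulk RNA, fewer cells in a given phase and less RNA per cell cannot be told apart.

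**Figure D1:**
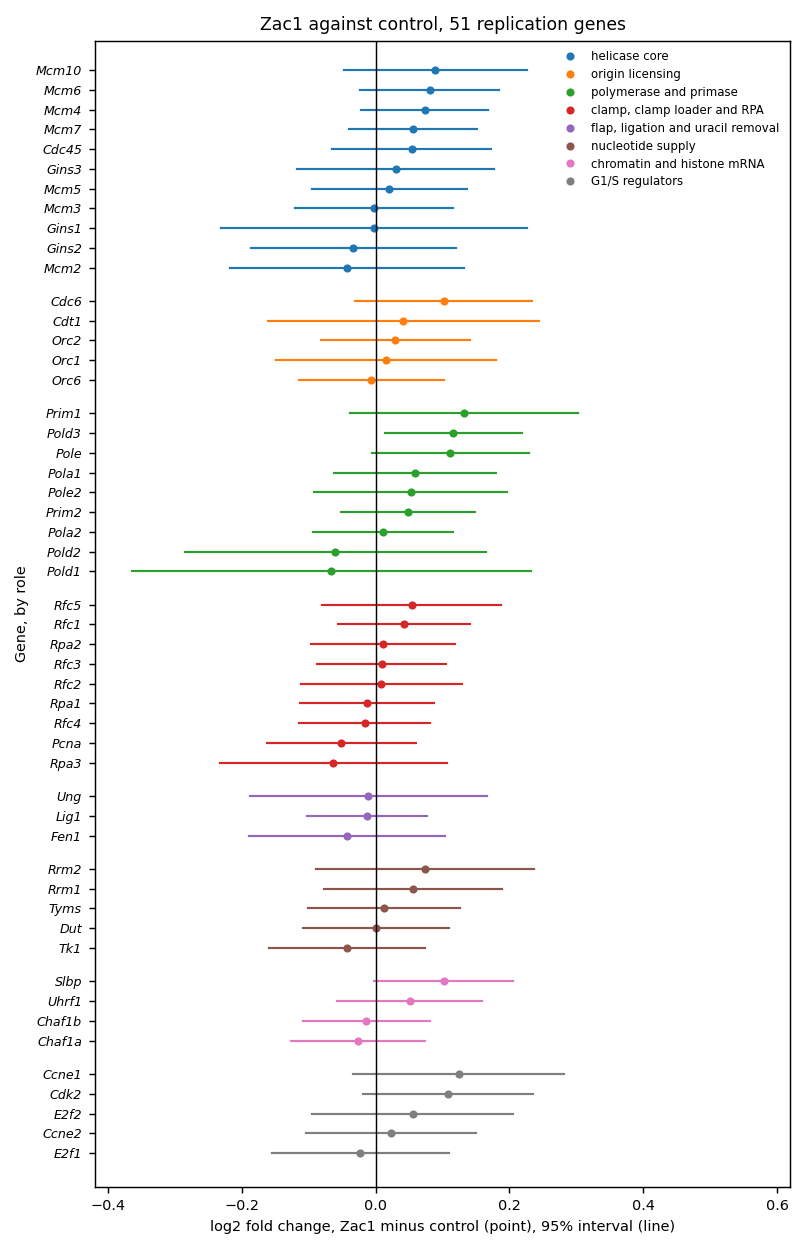
Log2 fold change (Zac1 minus control) of the 51 genes on the horizontal axis, grouped and coloured by role down the page, with the estimate as a point and its 95% interval as a line (edgeR, n = 4 libraries per group). The points lie between -0.07 and 0.13, and in this fit, without the replicate number, Pold3 is the gene whose interval leaves 0 out.

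Helicase genes are given first. Of the 11 genes of the ring, its activators Cdc45 and GINS, and the initiation factor Mcm10, 7 changes were above 0 and 4 below, with a median log2 of 0.03 and a range of -0.04 to 0.09. Mcm6, a subunit of the ring (gene ID 17219), had 246, 271, 250.4 and 270.1 CPM in Zac1 libraries 1, 2, 3 and 5, and 244, 255, 236 and 246 CPM in control libraries 1, 2, 3 and 5, the order kept below. Each Zac1 library of Mcm6 was above the control library of its number, but the groups overlapped, and the log2 change was 0.08 ± 0.05 (SE; edgeR adjusted p = 0.819). Mcm4, another ring subunit (gene ID 17217), had 253, 251, 251 and 268 CPM in the Zac1 libraries against 235, 252, 245 and 241 CPM in the control libraries. Only control library 2 reached the range of the Zac1 libraries, and the change of 0.07 ± 0.04 did not pass the test (edgeR adjusted p = 0.815). Mcm2 (gene ID 17216) had 234, 213, 243 and 193 CPM in the Zac1 libraries against 223, 243, 246 and 198 CPM in the control libraries. Number 5 was the lowest of both groups, and the change with Zac1 was -0.04 ± 0.08 (edgeR adjusted p = 0.973). The other 8 genes of the role differed by -0.03 (Gins2) to 0.09 (Mcm10). Mcm10 (gene ID 70024) had 64.1, 64.7, 59.6 and 71.8 CPM in the Zac1 libraries against 58.3, 60.7, 58.4 and 67.3 CPM in the control libraries, with number 5 highest in both groups. Gins2 (gene ID 272551) had 65.6, 58.2, 59.0 and 52.8 CPM in the Zac1 libraries against 60.8, 59.8, 66.2 and 54.3 CPM in the control libraries, with number 5 lowest in both groups.

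Licensing genes came next in the order of events. Cdc6, the ATPase that loads the ring together with the origin recognition complex (gene ID 23834), had 147, 133, 124 and 138 CPM in the Zac1 libraries against 128, 118, 139 and 121 CPM in the control libraries. It was higher in the Zac1 library for numbers 1, 2 and 5 and lower for number 3, and the log2 change was 0.10 ± 0.06 (edgeR adjusted p = 0.823). Orc2, an origin recognition subunit (gene ID 18393), had 92.8, 94.4, 91.0 and 104.5 CPM in the Zac1 libraries against 96.9, 92.4, 90.8 and 95.1 CPM in the control libraries, and the groups overlapped (log2 0.03 ± 0.05). Nif3l1, on the opposite strand, shares 854 exon bases with it, which leaves its reads uncertain. Cdt1, the loading factor that geminin inhibits (gene ID 67177), was a low gene, with 17.7, 16.2, 19.6 and 16.6 CPM in the Zac1 libraries against 17.8, 19.2, 17.0 and 14.1 CPM in the control libraries. Its change was 0.04 ± 0.09 on the log2 scale, and Orc1 and Orc6, also subunits of the recognition complex, differed by 0.02 and -0.0065.

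Polymerase and primase genes held the largest estimates in both directions. Pold3, an accessory subunit of the lagging strand polymerase delta (gene ID 67967), had 71.7, 75.7, 70.2 and 76.5 CPM in the Zac1 libraries against 65.7, 68.7, 66.9 and 70.1 CPM in the control libraries. The groups did not overlap, with means of 73.5 ± 3.03 CPM in the Zac1 libraries against 67.8 ± 1.93 CPM in the control libraries (SD, n = 4 each). The log2 change was 0.12 ± 0.05 (95% interval 0.01 to 0.22; edgeR adjusted p = 0.523). Pole, the catalytic subunit of the leading strand polymerase epsilon (gene ID 18973), had 122, 131, 118 and 136 CPM in the Zac1 libraries against 112, 120.4, 114 and 124 CPM in the control libraries. Every number gave a higher Zac1 value, the groups overlapped, and the change was 0.11 ± 0.06 (edgeR adjusted p = 0.702).

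Prim1, the catalytic primase subunit that makes the RNA primers (gene ID 19075), had 167, 178, 166 and 220.3 CPM in the Zac1 libraries against 166, 171, 160.1 and 169.6 CPM in the control libraries. One library, Zac1 number 5, stood well above the other 7, which lay between 160.1 and 178 CPM. The log2 change was 0.13 ± 0.08, the highest of the 51 genes (edgeR adjusted p = 0.816), and without that library it was 0.04. Pold1, the catalytic subunit of polymerase delta (gene ID 18971), had the lowest, -0.07 ± 0.13 (edgeR adjusted p = 0.976). Its libraries spread widely, with 44.4, 34.6, 47.5 and 30.9 CPM in the Zac1 group and 42.0, 42.1, 45.3 and 35.4 CPM in the control group. The coefficient of variation of Pold1 over the Zac1 libraries, 19.9%, was the highest of the members, whose median was 5.56%. Pold2, which binds Pold1 in the same enzyme, differed by -0.06 ± 0.10, and the polymerase alpha genes Pola1 and Pola2, Prim2 and the epsilon subunit Pole2 by 0.01 to 0.06.

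The clamp PCNA, its loader RFC and the single-strand binding complex RPA had log2 estimates of -0.06 (Rpa3) to 0.05 (Rfc5), with a median of 0.01 over the 9 genes. Pcna (gene ID 18538) had 379.85, 377, 409 and 353 CPM in the Zac1 libraries against 396, 403, 404 and 372 CPM in the control libraries. It was lower in the Zac1 library for numbers 1, 2 and 5 and higher for number 3, and the log2 change was -0.05 ± 0.05 (95% interval -0.16 to 0.06; edgeR adjusted p = 0.947). Rfc1, the large loader subunit (gene ID 19687), had 143, 150.1, 150.5 and 159 CPM in the Zac1 libraries against 143, 145, 149 and 148 CPM in the control libraries, which overlapped. Rfc2, a small loader subunit (gene ID 19718), had 104, 103, 108 and 97.7 CPM in the Zac1 libraries against 104, 104, 110.15 and 92.6 CPM in the control libraries. Number 5 was again the lowest of both groups for Rfc2. Rfc2 shares 952 exon bases with Lat2 on the opposite strand.

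Okazaki fragment processing and uracil removal comprised 3 genes, all with estimates just below 0. Fen1, the flap nuclease (gene ID 14156), had 183, 158, 179 and 156 CPM in the Zac1 libraries against 178, 174, 189.7 and 155 CPM in the control libraries (log2 -0.04 ± 0.07). Lig1, which seals the fragments (gene ID 16881), had 289, 290.0, 284 and 279.55 CPM in the Zac1 libraries against 284, 296, 281 and 290.5 CPM in the control libraries (log2 -0.01 ± 0.04). Neither gene separated the groups, and Ung, the uracil glycosylase, differed by -0.01 ± 0.08.

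Nucleotide supply genes differed by -0.04 (Tk1, thymidine kinase) to 0.07 (Rrm2). Rrm2, the small subunit of ribonucleotide reductase (gene ID 20135), had 155, 143, 133 and 176 CPM in the Zac1 libraries against 148, 142, 134 and 152 CPM in the control libraries. Its partner Rrm1 (gene ID 20133) had 386, 419, 387 and 459 CPM in the Zac1 libraries against 384, 398, 375 and 430.2 CPM in the control libraries. In both genes number 5 was the highest of both groups, and the changes with Zac1 were 0.07 ± 0.08 and 0.06 ± 0.06 on the log2 scale (edgeR adjusted p = 0.947 and 0.954). Tyms, thymidylate synthase, and Dut, which removes dUTP, differed by 0.01 and 0.0008, and the table also lists a Tyms pseudogene that could take some of the Tyms reads.

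Chromatin genes included the other member whose groups did not overlap. Slbp, which binds the stem-loop of histone mRNAs (gene ID 20492), had 92.0, 90.1, 92.3 and 90.4 CPM in the Zac1 libraries against 85.6, 86.8, 78.5 and 89.1 CPM in the control libraries. All 4 Zac1 values were above all 4 control values, the means were 91.2 ± 1.11 CPM in the Zac1 libraries against 85.0 ± 4.59 CPM in the control libraries (SD, n = 4 each), and the log2 change was 0.10 ± 0.05 (95% interval -0.0025 to 0.21; edgeR adjusted p = 0.687). Uhrf1, which guides maintenance DNA methylation (gene ID 18140), had 167, 154, 167 and 159 CPM in the Zac1 libraries against 150.3, 164, 162 and 147 CPM in the control libraries. Chaf1a, the large subunit of chromatin assembly factor 1 (gene ID 27221), had 207, 201, 204 and 194 CPM in the Zac1 libraries against 198, 206, 218 and 198 CPM in the control libraries. Both overlapped between groups, with differences of 0.05 ± 0.05 and -0.03 ± 0.05, and Chaf1a shares 1862 exon bases with Ubxn6 on the opposite strand. Reads of Ccne2, Cdc45, Fen1, Lig1, Mcm7, Orc6, Rfc4, Rfc5 and Tk1 are uncertain for the same reason, with 52 to 499 shared bases per neighbour.

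G1/S regulators closed the list. Ccne1, which encodes cyclin E1 (gene ID 12447), had 31.9, 32.3, 29.6 and 36.3 CPM in the Zac1 libraries against 30.9, 31.0, 26.5 and 31.1 CPM in the control libraries. Its kinase partner Cdk2 (gene ID 12566) had 50.5, 55.2, 46.2 and 50.5 CPM in the Zac1 libraries against 49.1, 47.6, 45.4 and 45.6 CPM in the control libraries. Both were higher in the Zac1 library for every number while the groups overlapped, with log2 changes of 0.12 ± 0.07 and 0.11 ± 0.06 (edgeR adjusted p = 0.808 and 0.769). E2f1, a transcription factor that activates many genes of this list (gene ID 13555), had 105, 101, 104 and 87.6 CPM in the Zac1 libraries against 103, 101, 107 and 93.3 CPM in the control libraries, a change of -0.02 ± 0.06. Ccne2 and E2f2, the second cyclin E and another activating E2F, differed by 0.02 and 0.06.

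**Figure D2:**
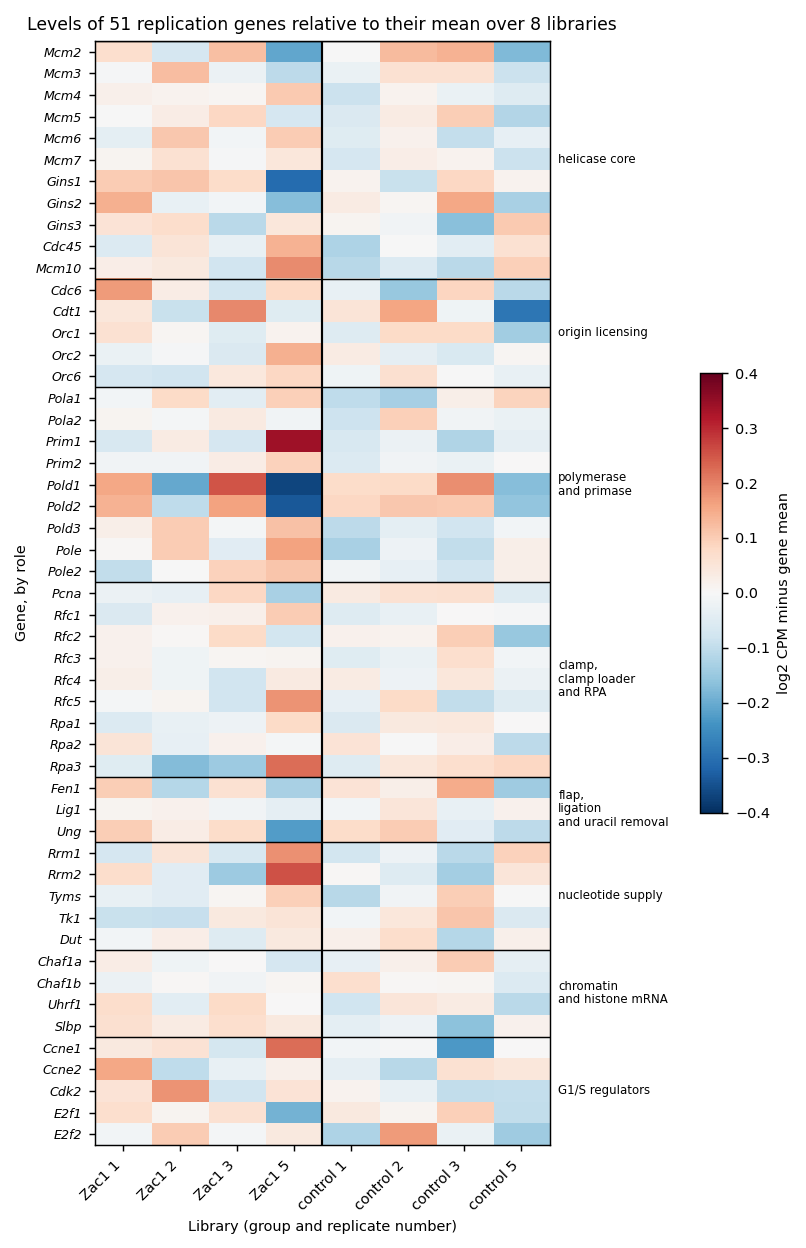
Log2 CPM of each of the 51 genes minus its mean over the 8 libraries, as colour, with the genes by role down the page and the Zac1 libraries left of the control libraries. No block of genes separates the groups as a whole, and in the columns of number 5 genes such as Pold1, Pold2 and Mcm2 are low and Rrm1, Rrm2 and Mcm10 are high in both groups.

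The 4 Zac1 values were all above the 4 control values for 2 of 51 members (3.92%, Pold3 and Slbp) and all below for none, while the groups of 5.79% of all tested genes did not overlap (4.39% with Zac1 above and 1.4% with Zac1 below). With DESeq2 size factors in place of TMM, Pold3 overlapped too. The Zac1 library was above the control library of the same number in all 4 numbers for 11 members, namely Mcm6, Cdc45, Mcm10, Prim1, Prim2, Pold3, Pole, Rrm1, Slbp, Ccne1 and Cdk2, and below in all 4 for none. Of the members 21.6% were higher in all 4 and 0% lower, beside 11.6% higher and 10% lower over all tested genes. Pooled over both directions the share was 21.6% for the members and for all tested genes. The difference by direction was not tested. The median difference over the 51 genes was 0.04, 0.0002, 0.01 and 0.09 on the log2 scale for numbers 1, 2, 3 and 5. It was above 0 in each number and lay near 0 in number 2.

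More members were called between replicate numbers than with Zac1. A joint test of the 3 coefficients for the numbers, with the group in the model (edgeR quasi-likelihood F test, Benjamini-Hochberg adjusted p under 0.05), called 9 of the 51 genes (17.6%), where 14.6% of all tested genes were called. The share is near that of all tested genes. In 6 of the 9 (Mcm2, Gins2, Pold1, Pold2, Fen1 and E2f1) number 5 was lower than the mean of numbers 1, 2 and 3, and in 3 (Mcm10, Rrm1 and Rrm2) it was higher. DESeq2 called 6 of the 9 and not E2f1, Gins2 and Mcm10, while limma-voom called the same 9. There are 2 libraries for each number, 1 of each group.

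Pold1 had mean levels of 43.2, 38.3, 46.4 and 33.2 CPM in numbers 1, 2, 3 and 5, so that number 5 was 0.36 lower on the log2 scale than the mean of numbers 1, 2 and 3 (edgeR adjusted p between numbers 0.000586). Pold2 (32.5, 27.5, 33.0 and 23.3 CPM in the Zac1 libraries, against 31.2, 31.8, 31.8 and 26.5 CPM in the control libraries) had a difference of -0.33 (adjusted p = 0.00422, same edgeR test). Mcm2 differed by -0.26 (edgeR adjusted p = 0.00151), with means of 228, 228, 244 and 195 CPM. All of these were lowest in number 5 in both groups.

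In the other direction, Rrm1 had means of 385, 409, 381 and 444 CPM in numbers 1, 2, 3 and 5, a difference of 0.18 for number 5 (edgeR adjusted p = 0.0123). Rrm2 differed by 0.21 (edgeR adjusted p = 0.00299) and Mcm10, with means of 61.2, 62.7, 59.0 and 69.5 CPM, by 0.19 (edgeR adjusted p = 0.0271). Each stood highest in number 5 in both groups. Fen1 differed by -0.18 (edgeR adjusted p = 0.00754), E2f1 by -0.19 (adjusted p = 0.0228) and Gins2 by -0.20 (adjusted p = 0.0312). Gins2 shares 2758 exon bases with Gse1 on the opposite strand, which is 70.7% of its transcript length, so its reads are uncertain.

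The members did not move with number 5 in 1 direction. Number 5 was above the mean of the others for 26 genes and below it for 25, with a median of 0.0002. It was the lowest of both groups for 12 members (23.5%, against 17.8% of all tested genes) and the highest of both for 11 (21.6%, against 16% of all tested genes). Subunits of 1 enzyme could differ, as in polymerase delta, where Pold1 and Pold2 were lower in number 5 and Pold3 differed by 0.07 (edgeR adjusted p between numbers 0.471).

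The number 5 difference, taken with its sign, varied with base composition. Over the 51 genes the log2 difference of number 5 from numbers 1, 2 and 3 had a Pearson correlation of -0.69 and a Spearman correlation of -0.66 with the GC content of the longest coding transcript. Over 14215 tested genes with a GC value they were -0.36 and -0.45, and over the 9276 of them above 10 CPM -0.51 and -0.55. These are descriptions across genes, which share the same 8 libraries and are not independent replicates. The 6 called genes that were lower in number 5 had a GC content of 53.4% to 60.7%, and the 3 that were higher had 44.4% to 48.7%. With transcript length the correlation over the members was -0.0059.

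A fit with an offset for GC content in each library, chosen after seeing the data, called 5 members between numbers (Fen1, Mcm2, Pcna, Rfc2 and Rrm2) and 9.18% of all tested genes. Mcm2 (edgeR adjusted p = 0.0247), Fen1 (0.0273) and Rrm2 (0.0166) were called with and without the offset. Pold1 (edgeR adjusted p = 0.0765), Pold2 (0.246), Gins2 (0.0853), E2f1 (0.955), Mcm10 (0.0873) and Rrm1 (0.12) were not called with it. Without both libraries of number 5 none of the 51 genes was called between numbers in edgeR, and 2.35% of all tested genes were.

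**Figure D3:**
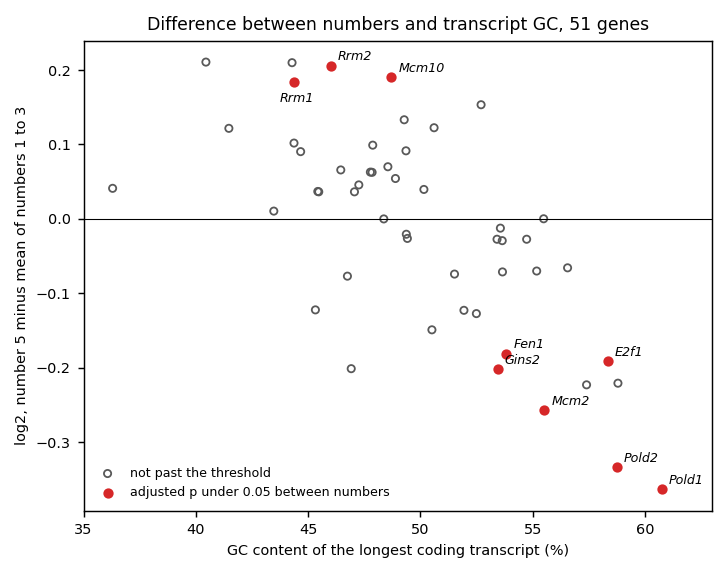
GC content of the longest coding transcript (%) on the horizontal axis against the log2 difference of replicate number 5 from the mean of numbers 1, 2 and 3, for each of the 51 genes. Filled points passed the joint test between numbers, and the cloud slopes downward (Pearson correlation -0.69), with Pold1 at the lower right and Rrm1 and Rrm2 at the upper left.

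Other genes of replication and of the G1/S boundary, outside the 51, were compared in the same way. Of 64 such genes, all tested, none was called with Zac1 by edgeR, 3 had an unadjusted p under 0.05, and DESeq2 and limma-voom each called 1, Ccnd1. Their median log2 change was 0.02, with 43 above 0 and 21 below. Ccnd1, which encodes cyclin D1, had 20, 12, 14 and 31 counts in the Zac1 libraries and 3, 2, 8 and 0 counts in the control libraries. These are at most 0.733 CPM, and the log2 change was 2.23 ± 0.55 (95% interval 1.05 to 3.42; edgeR adjusted p = 0.0541). E2f3, another activating E2F, had 24.4, 24.5, 23.4 and 26.7 CPM in the Zac1 libraries against 19.7, 21.2, 24.03 and 22.5 CPM in the control libraries, which overlapped (log2 0.18 ± 0.07, edgeR adjusted p = 0.493). Mcm9, a helicase of recombination repair related to the ring subunits, had 17.0, 17.1, 16.5 and 17.7 CPM in the Zac1 libraries against 14.8, 16.3, 14.8 and 14.95 CPM in the control libraries. Its groups did not overlap (log2 0.16 ± 0.07, edgeR adjusted p = 0.508), and E2f7, a repressive E2F, differed by 0.10 ± 0.05 (edgeR adjusted p = 0.696).

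A list of 30 genes of G2 and mitosis, such as Top2a, Ccnb1 and Plk1, was set beside the members because proliferating cells express both. Without the replicate number in the model, none of the 30 was called with Zac1 by edgeR, DESeq2 or limma-voom. With it, edgeR called 2, Cdc20 and Cdca8, both lower. In that fit 4.38% of all 14331 tested genes were called, 512 of them higher and 116 lower. Without it, 4 had an unadjusted edgeR p under 0.05, all lower, beside 277 lower ones among all 14331 tested genes. Of the 30 estimates 28 were below 0 (median log2 -0.07, against 0.02 for the members), beside 7772 of the 14331. The difference between the lists was not tested. Between replicate numbers 17 of the 30 (56.7%) were called, beside 14.6% of all tested genes, all 17 with number 5 higher. The 9 called members went both ways, and the lists were not tested against each other here either. The median of the 30 genes, relative to each gene's own mean, was -0.09, -0.06, -0.09 and 0.12 in Zac1 libraries 1, 2, 3 and 5 and 0.03, -0.04, -0.01 and 0.17 in control libraries 1, 2, 3 and 5. For the members it was 0.02, 0.01, -0.01 and 0.04 in the Zac1 libraries and -0.03, 0.01, 0.01 and -0.03 in the control libraries. For the 64 other replication and G1/S genes it was 0.0008, 0.0028, -0.0004 and 0.05 in the Zac1 libraries and -0.04, -0.01, -0.02 and 0.02 in the control libraries, and 45 of the 64 were higher in number 5. The libraries of number 5 thus had the highest median of both groups for the mitotic genes and for the 64 other genes, while for the 51 members number 5 was highest in the Zac1 group and, with number 1, low in the control group.

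**Figure D4:**
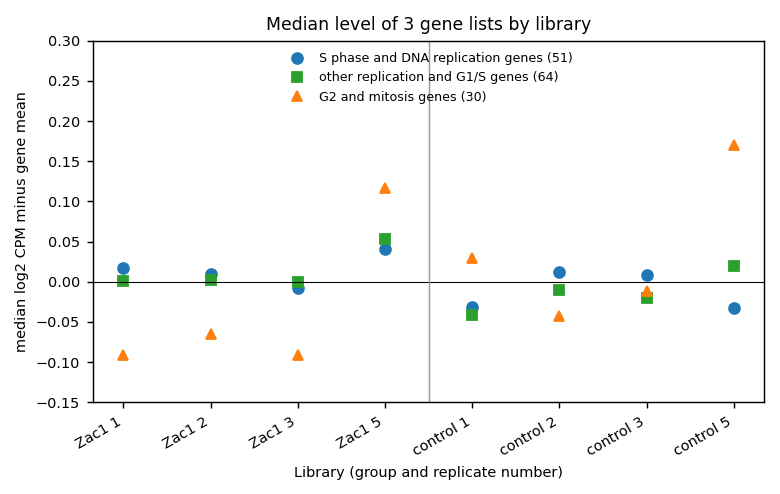
Median over each of 3 lists (the 51 members, the 64 other replication and G1/S genes, the 30 G2 and mitosis genes) of log2 CPM minus the gene's mean over the 8 libraries, with the Zac1 libraries left of the control libraries. The members stay between -0.03 and 0.04, while the G2 and mitosis genes stand at 0.12 in Zac1 library 5 and 0.17 in control library 5.

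Levels between genes were compared per kb of the longest coding transcript. Pcna was the most abundant, at 250.2 ± 15.1 CPM per kb in the Zac1 libraries and 259 ± 9.62 in the control libraries (SD, n = 4 each). Prim1 followed at 116 ± 16.2 in the Zac1 libraries and 105 ± 3.09 in the control libraries, and Rrm1 at 103 ± 8.61 in the Zac1 libraries and 99.3 ± 6.06 in the control libraries, whose SDs overlap with those of Prim1. The lowest were Gins1, with 6.84 CPM per kb in the Zac1 libraries and 6.85 in the control libraries, and Orc1, with 4.12 in the Zac1 libraries and 4.07 in the control libraries. The median over the 51 genes was 35.6 in either group.

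Complexes differed in how even their subunits were. The 6 ring genes lay close together, between 59.6 (Mcm6) and 85.1 (Mcm3) CPM per kb in the Zac1 libraries and between 56.3 (Mcm6) and 85.2 (Mcm3) in the control libraries. GINS genes stood lower, at 6.84 (Gins1) to 15.1 (Gins2) in the Zac1 libraries and 6.85 (Gins1) to 15.4 (Gins2) in the control libraries. The origin recognition genes covered a wide range, with 56.9 for Orc6, 26.9 for Orc2 and 4.12 for Orc1 in the Zac1 libraries and 57.2 for Orc6, 26.3 for Orc2 and 4.07 for Orc1 in the control libraries. Clamp loader genes ran between 18.1 (Rfc5) and 67.5 (Rfc4) in the Zac1 libraries and between 17.5 (Rfc5) and 68.3 (Rfc4) in the control libraries. The genes of polymerase delta measured here lay between 11.4 (Pold1) and 23.96 (Pold3) CPM per kb in the Zac1 libraries and between 11.9 (Pold1) and 22.1 (Pold3) in the control libraries. The annotation used for length is that of GENCODE M21 on GRCm38, not that of the authors' counting, so these levels rest on an assumed transcript.

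**Figure D5:**
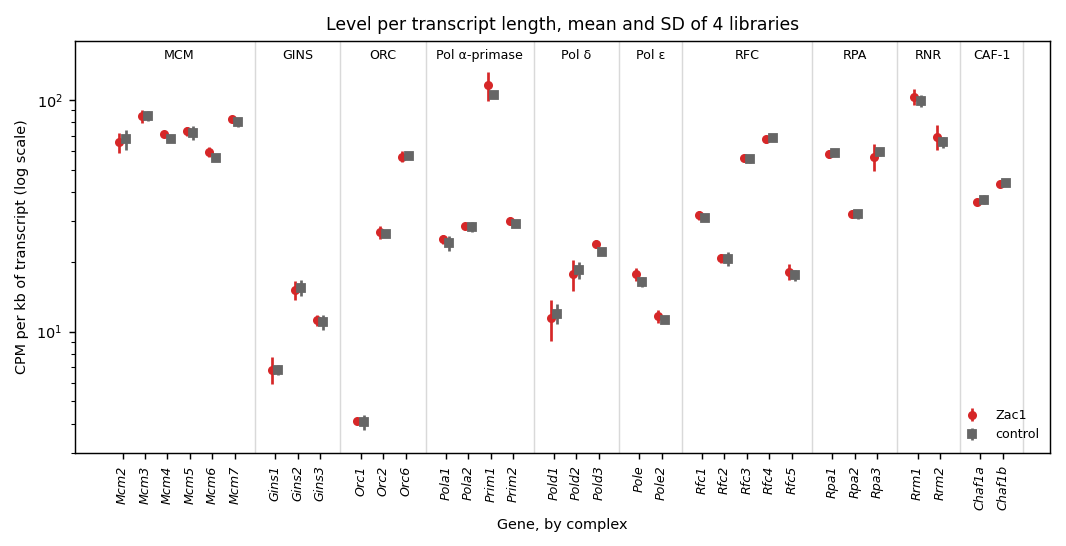
Level per kb of transcript on a log scale for genes of the complexes named along the top, as mean and SD of 4 libraries, with Zac1 (circles) left of control (squares) for each gene. The Mcm2 to Mcm7 genes lie between 56.3 and 85.2 CPM per kb, while Orc1, Orc2 and Orc6 run between 4.07 and 57.2.

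Promoters of the members were read for the letters of E2F sites, since E2F factors are known to bind such sites in replication genes. RefSeq promoter windows on GRCm38.p6, 250 bases before to 50 bases after the start, were found for 44 of the 51 members (52 windows). The letters TTTCCCGC, TTTGGCGC or TTTCGCGC, on either strand, were in 17 of the 52 windows (32.7%), against 606 of 32851 windows in the RefSeq table (1.84%). CCAAT, the letters of the CCAAT box, was in 59.6% of the members' windows and 37.4% of all. GGGGCCCC, letters known to be bound by Zac1, was in 0 of the 52 and in 1.08% of all, which says only that these letters are not in those windows. TTTGGCGC and TTTCGCGC can overlap on opposite strands, and such a run is counted here as 1 stretch. The stretches below show those letters in capitals for some of the genes, 5′ to 3′ on the strand of the gene. They were chosen from the licensing, helicase, polymerase, chromatin and G1/S roles. Rfc3 of the clamp loader and Lig1 carry the letters too and are not shown. No nucleotide supply gene (Rrm1, Rrm2, Tyms, Tk1 and Dut) has the letters in its window, and the windows of Ccne1 and E2f1 also lack them. Whether a window covers the main promoter of its gene was not checked. A window without the letters therefore does not show that the gene, E2f1 included, lacks E2F sites.
Cdc6, chr11:98908002-98908031, plus strand: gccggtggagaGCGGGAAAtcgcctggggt
Orc1, chr4:108579416-108579445, plus strand: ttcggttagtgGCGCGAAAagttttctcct
Mcm5, chr8:75109347-75109376, plus strand: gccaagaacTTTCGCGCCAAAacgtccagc
Mcm7, chr5:138172030-138172059, minus strand: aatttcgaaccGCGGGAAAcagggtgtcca
Gins3, chr8:95633507-95633536, plus strand: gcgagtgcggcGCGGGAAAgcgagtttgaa
Pola1, chrX:93632275-93632304, minus strand: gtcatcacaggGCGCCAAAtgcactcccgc
Uhrf1, chr17:56304117-56304146, plus strand: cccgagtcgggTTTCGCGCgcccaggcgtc
Cdk2, chr10:128705173-128705202, minus strand: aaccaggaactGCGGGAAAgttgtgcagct

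A longer part of the Mcm6 window is printed because it holds such letters at 2 places, 110 and 47 bases before the start. Mcm3, Mcm7 and Rfc3 also have a window with 2 such stretches. Mcm6 was taken after its values were seen, being higher with Zac1 in every replicate number without passing the test. A link between the letters and that difference was not tested. The 250 bases before the start of Mcm6, at chr1:128359706-128359955 on the minus strand, again carry the letters in capitals.
Mcm6: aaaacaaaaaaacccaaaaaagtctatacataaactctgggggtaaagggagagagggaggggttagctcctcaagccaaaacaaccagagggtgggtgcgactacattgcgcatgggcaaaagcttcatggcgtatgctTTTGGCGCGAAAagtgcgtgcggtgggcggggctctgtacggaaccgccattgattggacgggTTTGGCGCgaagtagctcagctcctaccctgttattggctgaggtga

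The 17 genes with E2F letters were Mcm3, Mcm5, Mcm6, Mcm7, Gins3, Cdc6, Cdt1, Orc1, Pola1, Pold1, Pold3, Pole2, Rfc3, Lig1, Uhrf1, Cdk2 and E2f2. Their log2 changes with Zac1 ran between -0.07 and 0.12 with a median of 0.05, and those of the 27 genes whose windows lack the letters between -0.06 and 0.13 with a median of 0.0008. The ranges overlap nearly in full, and the difference was not tested. Between replicate numbers 1 of the 17 (Pold1) and 7 of the 27 were called, beside 14.6% of all tested genes, and that difference was not tested either. Gins1, Gins2, Mcm4, Ccne2, Rfc2, Prim2 and Pole were not matched to a window.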

How the data were processed

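The authors deposited 1 table of unnormalized read counts for 23100 genes in 8 libraries. Per the labels' protocols the libraries were made with a stranded mRNA kit. Per the submitters' processing notes the build was mm9 and the tools were HTSeq 0.6.1p1, Bowtie2 2.2.8, TopHat2 2.1.1, bcl2fastq 2.17 and FastQC. Which annotation, strand setting or filter was used for counting is not given in the sources used here. Reads of genes that overlap on opposite strands are therefore uncertain (13 members).

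From these counts, edgeR 4.0.16 in R 4.3.3 (filterByExpr, TMM scaling, robust quasi-likelihood F test) compared Zac1 with control over 14331 genes, and the replicate numbers jointly with the group in the model. A called gene has a Benjamini-Hochberg adjusted p under 0.05. Log2 changes are Zac1 minus control, their SE was derived from the F statistic, and levels are TMM-scaled CPM. Alternatives were DESeq2 1.42.0, limma-voom 3.58.1, unscaled totals, no filter, the replicate block, left-out libraries and, added after seeing the data, GC offsets. The steps were tested on simulated counts. Transcript length and GC content come from GENCODE M21 (GRCm38), matched by symbol or gene ID.

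The members, their roles and the lists were chosen with earlier results of these data known. Values of every library are given for each member called with Zac1 (there were none), for the 2 members of each role with the smallest p with Zac1 and the 1 with the smallest p between numbers, and for the highest and lowest change. Among the other replication and G1/S genes the 4 with the smallest p are named. Further genes were named after their values were seen. A gene that was called between numbers is not reported here. Library totals were 30.5 to 42.5 M counts, and the spread between same-group libraries exceeded counting error. Nothing in the labels says which samples came from separate cultures beyond the design text's word biological, so the p-values measure the spread between these samples, which may be technical.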

Additional observations from a re-analysis of the deposited data

Results flagged for a closer look

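Of 102 sets of 4 libraries (51 genes in each group), 5 held a library whose gap to its nearest neighbour took up more of the set's range than the 95% critical value of Dixon's test allows. Chance gives about 1 in 20 such sets. In the Zac1 libraries, replicate 5 had the highest level of Mcm4, 267.66 CPM, with the others between 250.72 and 252.89 CPM. Replicate 5 also had the lowest level of Gins1 among the Zac1 libraries, 5.9842 CPM, with the others between 7.8086 and 8.0013 CPM. For Gins3, Zac1 replicate 3 was lowest at 25.932 CPM, with the others between 28.833 and 29.31 CPM. In the control libraries, replicate 5 had the lowest level of Pold2, 26.474 CPM, with the others between 31.216 and 31.808 CPM. For Ccne1, control replicate 3 was lowest at 26.508 CPM, with the others between 30.865 and 31.12 CPM.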

How the results depend on the processing

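None of the 51 genes was called with Zac1 under any of 18 alternatives (DESeq2, unscaled totals, limma-voom, no filter, replicate block, GC offsets, each library left out, each number left out), which called 205 to 628 genes in all. Their median log2 change stayed between 0.0142 and 0.0393. The replicate numbers were not taken to pair the samples: correlations of same-numbered deviations were 0.291, 0.048, 0.143 and 0.292 for numbers 1, 2, 3 and 5, and 7 of 8 libraries correlated best with their own number. The replicate block raised the calls over all genes to 628 (4.38%), against 313 without it, and called 0 members, but 1 (Prim1) with no filter and 0 to 1 without 1 number (Cdc6 without number 3, adjusted p = 0.00486). Of the 30 G2 and mitosis genes, 2 were called with the replicate block, both lower with Zac1 (Cdc20 and Cdca8, edgeR adjusted p = 0.0199 and 0.0288), and 0 under the other alternatives. Of the 628 calls of the block over all genes, 116 were lower. Between numbers, the 9 calls became 6 with DESeq2, 13 with no filter, 5 with GC offsets and 0 to 13 without 1 number (0 without number 5). Of the other replication and G1/S genes, 1 (Ccnd1) was called under DESeq2, unscaled totals, limma-voom, no filter, the replicate block and GC offsets, and 0 to 1 without 1 library or number. Members higher in all 4 numbers were 17 with unscaled totals, against 11, and those whose groups did not overlap were 1 with DESeq2 size factors, against 2. The cause of these changes was not tested. Low genes such as Ccnd1 are limited by depth.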

Other observations

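Other genes of replication and the G1/S boundary differed between replicate numbers as well. Of the 64 genes, 6 (9.38%, against 14.6% of all tested genes) were called by the same edgeR test, and those named here were chosen after their values were seen. Dbf4, the activating subunit of the Cdc7 kinase, had means of 70.1, 71.7, 67.0 and 84.6 CPM in numbers 1, 2, 3 and 5 (edgeR adjusted p = 0.00294). Ccna2, which encodes cyclin A2, had 224, 228, 218 and 262 CPM (edgeR adjusted p = 0.00995). Number 5 was the highest of the 4 means in both genes, whereas it was the lowest in Rnaseh2c, a subunit of ribonuclease H2, at 9.59, 7.90, 9.75 and 6.91 CPM (edgeR adjusted p = 0.0314), and in Pole3, a histone-fold subunit of polymerase epsilon (edgeR adjusted p = 0.0367). Ticrr, which helps to load Cdc45 and is listed in the table under an older clone name, was called too (edgeR adjusted p = 0.0416).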
